A study of Mus musculus with 8 samples.

Results

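Oligodendrocyte precursor cells (OPCs) of the mouse primary visual cortex (V1) were described from the nuclei that the deposited cell table labels OPC, which were 2848 of 102330 nuclei. The nuclei were joined to the count matrix by their barcodes, and their unique molecular identifiers (UMIs, each standing for 1 captured RNA molecule) were summed in each of the 8 libraries. A level is given in CPM, the UMIs of a gene per 1000000 OPC UMIs of that library.

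All mice carried floxed alleles of Nr3c1, the glucocorticoid receptor gene (GR fl/fl), and were injected at birth with 1 of 2 viral vectors. GR-KO mice received an AAV2/5 in which the GfaABC1D promoter drove Cre together with membrane EGFP (EGFP-CAAX), with the 4x6T and WPRE elements. GR-Con mice received the same construct with ΔCre, a recombinase without activity, in place of Cre. GfaABC1D is an astrocyte promoter, so astrocytes were the intended target and OPCs were their neighbours. Normally reared (NR) mice lived on a light cycle, and dark-reared (DR) mice were kept in darkness until V1 was collected at postnatal day 21. Each of the 4 groups, named by rearing and genotype (such as NR GR-Con), held 2 libraries of single-nucleus RNA-seq, 1 from a male and 1 from a female mouse. The question was what visual deprivation and the loss of GR from astrocytes did to gene expression in the cortex.

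OPCs, also called NG2 glia, are the cells of the central nervous system that divide and give rise to myelinating oligodendrocytes. They depend on platelet-derived growth factor acting through Pdgfra, carry the proteoglycan NG2 (Cspg4), receive synapses from neurons, and remain as a dividing pool when myelination is under way. A precursor that leaves the cell cycle passes through a committed stage marked by genes such as Gpr17, Bcas1 and Enpp6 before it makes myelin.

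A library held 231 to 479 OPC nuclei, between 2020506 and 3059249 summed OPC UMIs, and a median of 5200 to 9392 UMIs per OPC nucleus. The deepest were the NR GR-KO libraries, with medians of 8405 and 9392, against 6229 and 5413 in NR GR-Con. Some libraries stood apart. In microglia, 3 libraries (NR GR-Con male, NR GR-KO male and DR GR-Con female) held 2 to 4 microglia nuclei, and the other 5 held 573 to 948. Within OPCs, the DR GR-Con female library was the lowest of 8 in 14 of 21 measured cell cycle genes and in 15 of 19 genes of cholesterol synthesis. Of all barcodes, 1220 occurred in more than 1 library, and 58 OPC nuclei had a barcode that another library also held. Only 1 barcode belonged to OPC nuclei in more than 1 library. How many repeats arise by chance was not worked out.

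The label was checked against markers. All 16 genes of a list of OPC identity genes had their highest pooled CPM in OPCs among the 20 deposited types. Pdgfra, the receptor that OPCs need to survive and divide, was at 603 CPM in OPCs and 133 CPM in the next type, the vascular leptomeningeal cells (VLMC). Cspg4 was at 248 CPM in OPCs and 101 CPM in mural cells (smooth muscle cells and pericytes), which are known to carry NG2. Vcan, the matrix proteoglycan versican, was at 1180 CPM in OPCs and 180 CPM in Lamp5 interneurons. The lineage factors Olig1 (81.1 against 76.3 CPM) and Sox10 (304 against 291 CPM) were nearly as high in oligodendrocytes, so they marked the lineage rather than the precursor. Of the genes of later stages, Tcf7l2, Bcas1, Enpp6 and Bmp4 were lower in OPCs than in oligodendrocytes. Tcf7l2 was at 120 against 594 CPM, Bcas1 at 687 against 1543 CPM and Enpp6 at 1.24 against 292 CPM. Gpr17 was higher in OPCs, at 96.7 against 47.1 CPM, and 40.8% of OPC nuclei carried it.

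Genes were then ranked, with no test, by the ratio of the pooled CPM in OPCs to the highest CPM in any other type. Kcnh8, a voltage-gated potassium channel subunit, came first at 322 CPM, 36.5 times its level in oligodendrocytes. Tmem255b (78.9 CPM, 30.2 times the next type), Gucy2f (69.9 CPM, 25.7 times), a guanylate cyclase best known from photoreceptors, and the secreted peptide gene Tafa4 (59.8 CPM, 21.1 times) followed. The others among the first 12 were Cacng4, Myt1, Megf11, Emid1, Shc4, Stk32a, Gm42948 and C1ql1, with ratios between 9.83 and 15.2. Cacng4 encodes an auxiliary subunit of AMPA-type glutamate receptors, and Myt1 is a zinc finger factor of the oligodendrocyte lineage. Levels were steady across libraries for Kcnh8 (325 ± 25.2 CPM, SD, n = 8) and Myt1 (542 ± 37.4 CPM, SD, n = 8). Shc4 varied more, at 380 ± 94.8 CPM (SD, n = 8).

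**Figure D1:**
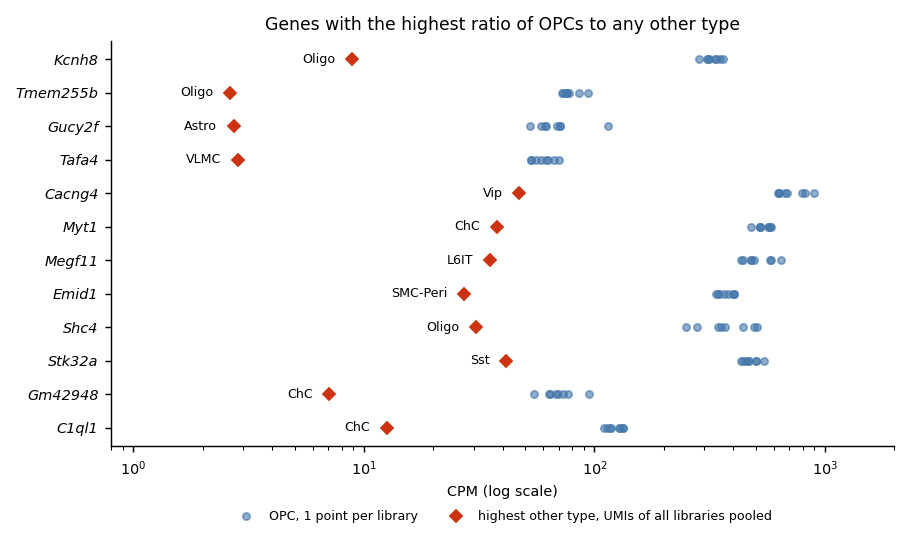
Level of the 12 genes with the highest ratio of OPC CPM to the CPM of any other deposited cell type, in CPM on a log axis. Circles give OPCs in each of the 8 libraries and diamonds the pooled level of the next highest type, and the circles of Kcnh8 lie between 285 and 362 CPM against 8.84 CPM in oligodendrocytes.

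OPCs made up 2.19% to 3.64% of the nuclei of a library. The share averaged 2.72% ± 0.491 in DR and 2.86% ± 0.547 in NR (SD, n = 4 each), and the exact two-sided permutation test gave p = 0.657. By genotype it averaged 2.78% ± 0.412 in GR-KO and 2.79% ± 0.619 in GR-Con (SD, n = 4 each; exact permutation p = 0.943). The libraries lay at 3.64% and 2.79% in NR GR-Con, 2.56% and 2.43% in NR GR-KO, 2.55% and 2.19% in DR GR-Con, and 3.36% and 2.77% in DR GR-KO, male first, so the knockouts were below the controls in NR and above them in DR, a difference that was not tested. The smallest p that 4 libraries against 4 allow is 0.0286. In these sums a gene may be low because fewer OPC nuclei carry it or because each carries less RNA, and the sums cannot tell these apart.

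Nr3c1, the floxed gene, was measured in every OPC library first. It stood at 187 and 184 CPM in NR GR-Con, 173 and 193 CPM in NR GR-KO, 177 and 144 CPM in DR GR-Con, and 172 and 160 CPM in DR GR-KO, in the order male and female that is used throughout. The groups overlapped, and the log2 difference of GR-KO from GR-Con over both rearings was -0.01 ± 0.09 (SE, adjusted p = 0.999, edgeR). Counts at the 3′ end do not show whether the floxed part was removed. Per the study's methods the sort kept DRAQ5-positive and GFP-negative nuclei, and in the OPC nuclei that passed it there were 2 UMIs of EGFP, 2 of Cre and 2 of ΔCre over all 8 libraries. Fkbp5, a gene that glucocorticoids induce, averaged 88.1 CPM in NR GR-Con astrocytes and 13.4 CPM in NR GR-KO astrocytes, and 47.1 against 12.7 CPM in DR. In OPCs Fkbp5 stood at 91.2 and 57.5 CPM in NR GR-Con and 88.5 and 44.7 CPM in NR GR-KO, with overlapping groups.

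In darkness, genes of dividing cells were higher in OPCs of GR-KO than of GR-Con mice. Of 11329 genes tested, 33 were higher (0.291% of all genes) and 9 were lower (0.0794%) in DR GR-KO at an adjusted p under 0.05 in edgeR's likelihood ratio test. The cell cycle list had 15 genes tested, of which 5 rose (Mki67, Top2a, Cenpf, Cenpe and Kif11) and none fell, with a median log2 difference of 1.45. These calls rested on the likelihood ratio test, since the quasi-likelihood F-test and DESeq2 each called 1 gene, and the F-test kept none of the 42. The set of calls also changed with single libraries left out, each of which leaves 1 library in a group. Nearly all of the 42 were kept without DR GR-Con male, though many further genes were then called. Fewer were kept without any other DR library.

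Mki67, which encodes the proliferation antigen Ki-67, stood at 8.47 and 0.889 CPM in DR GR-Con and 32.2 and 27.02 CPM in DR GR-KO, a log2 difference of 2.64 ± 0.41 (SE, adjusted p = 2.89e-07). The lowest of all 8 values was that of the DR GR-Con female library. Cenpf, a kinetochore protein, stood at 4.90 and 0.445 CPM against 21.8 and 22.7 CPM (3.02 ± 0.42, adjusted p = 6.37e-09). Kif11, the spindle motor Eg5, stood at 8.47 and 1.78 CPM against 31.2 and 23.6 CPM (2.40 ± 0.39, adjusted p = 2.10e-06). Top2a, the topoisomerase that untangles replicated chromosomes, stood at 20.9 and 0.889 CPM against 60.9 and 50.7 CPM (2.34 ± 0.59, adjusted p = 0.0237). In all 4 genes both knockout libraries lay above both controls, and the groups did not overlap, in either direction, in 3675 of the 11329 genes tested and in all 33 higher calls. Under the quasi-likelihood F-test the adjusted p was 0.106 for Mki67 and 0.106 for Kif11. The DR GR-KO libraries also had the lowest median UMIs per OPC nucleus, at 5200 and 5297 against 5860 and 7245 in DR GR-Con. Malat1 stood at 46360 and 47527 CPM in DR GR-KO against 52193 and 53682 CPM in DR GR-Con. The part of depth and RNA quality in this result was not tested.

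In normal light the cell cycle list had 13 genes tested, of which 2 were called higher (Cenpe and Cenpa) and none lower. All 13 log2 differences were positive, with a median of 0.45 beside -0.00229 over all genes. Cenpa was higher by 1.57 ± 0.41 (adjusted p = 0.0364 by the likelihood ratio test, and 0.169 by the F-test). The groups overlapped in Mki67, Kif11 and Top2a. Mki67 was at 7.52 and 24.1 CPM in NR GR-Con and 30.7 and 11.3 CPM in NR GR-KO, and its log2 difference of 0.45 ± 0.41 was not called (adjusted p = 0.998). The difference of the genotype effect between NR and DR was -2.23 ± 0.78 for Mki67 and was not called either (adjusted p = 0.574). Cenpe, the kinetochore motor CENP-E, passed the likelihood ratio test in both rearings, at 11.1 and 12.8 CPM against 27.02 and 23.5 CPM in NR (1.07 ± 0.26, adjusted p = 0.0180) and at 7.58 and 2.22 CPM against 19.3 and 22.2 CPM in DR (2.06 ± 0.38, adjusted p = 1.02e-04). Both calls of Cenpe were lost under the F-test (adjusted p = 0.0761 in NR and 0.159 in DR) and under DESeq2.

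**Figure D2:**
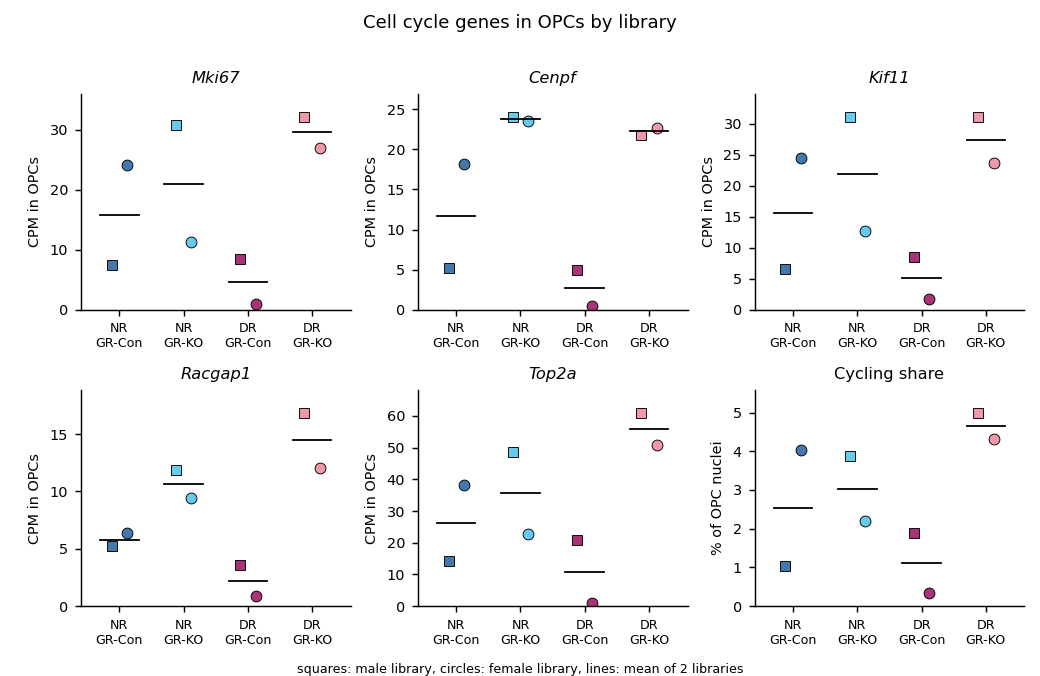
Levels of Mki67, Cenpf, Kif11, Racgap1 and Top2a in OPCs, in CPM, and the percent of OPC nuclei called cycling after thinning, for the 4 groups, with squares for male libraries, circles for female libraries and lines for the mean of 2. In DR the GR-KO points of Mki67, at 32.2 and 27.02 CPM, lie above the GR-Con points at 8.47 and 0.889 CPM, while in NR the groups overlap.

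Racgap1, a regulator of cytokinesis shown after its values were seen, was at 3.57 and 0.889 CPM in DR GR-Con and 16.8 and 12.1 CPM in DR GR-KO. Nuclei with UMIs of at least 2 of 8 mitotic genes held 38.8% to 69.8% of the list's UMIs in 7 of the 8 libraries and 1.52% in DR GR-Con female. These nuclei were picked by such UMIs, so a high share follows in part from the choice, and the list's UMIs were spread over 90 to 182 nuclei a library. After each nucleus was thinned to 3000 UMIs, with 0 to 24 shallower nuclei a library left out of the percentages, such cycling nuclei numbered 7 (1.89%) and 1 (0.331%) in DR GR-Con, 18 (4.99%) and 16 (4.32%) in DR GR-KO, 5 (1.04%) and 14 (4.02%) in NR GR-Con, and 12 (3.87%) and 5 (2.19%) in NR GR-KO. The highest share in L2/3 excitatory neurons, which do not divide, was 0.0395%. Over both rearings the share was 3.84% ± 1.19 in GR-KO and 1.82% ± 1.60 in GR-Con (SD, n = 4 each; exact two-sided permutation p = 0.0857, adjusted p = 0.257 over 6 tests of shares). Without thinning it was 4.36% against 2.62% (exact permutation p = 0.171), and in DR the counts were then 18 (4.65%) and 1 (0.331%) in GR-Con against 19 (4.96%) and 21 (5.47%) in GR-KO, so that the DR GR-Con male library lay close to the knockouts and the gap rested on the DR GR-Con female library. By rearing it was 2.88% in DR and 2.78% in NR (exact permutation p = 0.943).

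The promoters of the genes higher in DR GR-KO often held the letters of cell cycle elements. These elements were searched with many of the genes already known as cell cycle genes. The shares below therefore describe the genes and are not separate evidence for the calls. Of the 33 genes, 28 had a promoter in the RefSeq table (GRCm38.p6). The search covered the 250 bases before and the 50 bases after the start site, on both strands. A gene counted if any of its promoters held a match. The cell cycle gene homology region (CHR, TTTGAA or TTCAAA), an element that the DREAM complex is known to bind, was found in 22 of 28 (78.6%), in 3 of 8 promoters of the genes lower in DR GR-KO (37.5%), and in 14.0% of the 8807 tested genes with a promoter. The CCAAT box (CCAAT or ATTGG) was found in 21 of 28 (75%) and in 43.3% of all. For 4 of them the 150 bases before the start site are shown 5′ to 3′ on the strand of the gene. These were the 4 of smallest p that held a whole CHR in those 150 bases, so each shows one by choice. Genes without one there were passed over, among them Cenpf, whose p was smaller. The last base is the one before the start site, and CHR and CCAAT letters are in capitals. They are those of Mki67 (chr7:135716380-135716529, minus strand), Kif11 (chr19:37376232-37376381, plus strand), Ect2 (chr3:27153879-27154028, minus strand), a regulator of cytokinesis, and Depdc1a (chr3:159495283-159495432, plus strand). All 4 were thus picked by p and by the CHR match, and Ect2 and Depdc1a after their values were seen.
Mki67: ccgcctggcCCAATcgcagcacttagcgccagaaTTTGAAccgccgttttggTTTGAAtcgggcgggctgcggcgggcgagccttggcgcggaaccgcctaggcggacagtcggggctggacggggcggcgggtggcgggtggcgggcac
Kif11: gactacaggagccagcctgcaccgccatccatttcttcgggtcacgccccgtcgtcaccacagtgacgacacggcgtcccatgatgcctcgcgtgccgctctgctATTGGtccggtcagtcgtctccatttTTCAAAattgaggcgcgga
Ect2: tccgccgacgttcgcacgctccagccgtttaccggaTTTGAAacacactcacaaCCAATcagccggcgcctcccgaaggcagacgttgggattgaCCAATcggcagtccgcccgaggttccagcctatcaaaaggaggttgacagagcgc
Depdc1a: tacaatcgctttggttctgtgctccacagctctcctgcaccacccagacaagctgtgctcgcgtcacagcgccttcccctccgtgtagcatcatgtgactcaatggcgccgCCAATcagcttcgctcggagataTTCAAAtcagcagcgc
In Mki67 the CHR letters begin 116 and 98 bases before the start site, in Kif11 19 bases, in Ect2 114 bases and in Depdc1a 16 bases before it. A match is a description of the letters and does not show that a factor binds there.

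Outside the cell cycle, 2 further named genes rose in DR GR-KO. Zbtb16, a zinc finger gene that glucocorticoids induce, stood at 86.5 and 110 CPM in DR GR-Con and 143 and 218 CPM in DR GR-KO (0.87 ± 0.20, adjusted p = 0.00673). In NR Zbtb16 was at 177 and 67.8 CPM in GR-Con and 136 and 56.0 CPM in GR-KO, so that the male and female libraries differed more than the groups did. Vegfa, the angiogenic growth factor, stood at 130 and 118 CPM against 213 and 170 CPM (0.61 ± 0.15, adjusted p = 0.0169). Zbtb16 was the only 1 of 11 tested glucocorticoid receptor targets that was called in this comparison, and the median of that list was -0.07.

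Of the 9 genes lower in DR GR-KO, the named ones were highest in 1 library. Rnf213, a large ubiquitin ligase gene, stood at 27.6 and 217 CPM against 19.8 and 19.3 CPM (-2.66 ± 0.60, adjusted p = 0.00406). The DR GR-Con female library was the highest of all 8, and the NR libraries lay between 17.4 and 44.1 CPM. Gbp7, Ifit3, Ddx58 and Eif2ak2, which interferon is known to induce, were called as well and were chosen for mention after their values were seen, and no interferon list was among the 22 gene lists. Mlip, Csf1 and 6530403H02Rik, not known for this, were also among the 9. Without the DR GR-Con female library none of the 9 lower calls was kept, and 13 of the 33 higher calls were. The interferon-stimulated response element (ISRE, searched as GAAA, any 2 bases and GAAA again, on either strand) was found in 4 of the 8 promoters at hand (50%) and in 3.42% of all. Those 4 were Gbp7, Ifit3, Ddx58 and Eif2ak2, the interferon genes named above, so this share is not separate evidence for the calls. The promoter of Gbp7 (chr3:142530186-142530335, plus strand), a guanylate-binding protein gene, is shown with the ISRE letters in capitals, which begin 53 bases before the start site.
Gbp7: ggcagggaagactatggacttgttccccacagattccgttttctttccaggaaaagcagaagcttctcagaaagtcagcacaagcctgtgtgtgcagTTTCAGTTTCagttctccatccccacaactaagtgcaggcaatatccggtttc

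In normal light, many genes higher in GR-KO were genes with higher levels in excitatory neurons than in OPCs. Of 11833 genes tested, 37 were higher (0.313%) and 5 were lower (0.0423%) in NR GR-KO. Of the 37 higher genes, 28 had a CPM in excitatory neurons at least 4 times that in OPCs, as did 3.38% of all genes tested. In both directions 13 of the 42 calls did not meet this rule, against 35 of 54 without NR GR-Con female and 18 of 33 without NR GR-KO female. With each library left out, 13 to 25 of the 42 calls were kept. The glutamate and GABA receptor list had 3 of 27 tested genes called, all higher (Grin2a, Grin2b and Gabrg3), and its median was 0.05.

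Galntl6, a glycosyltransferase gene of the GalNAc-transferase family, stood at 40.2 and 45.2 CPM in NR GR-Con and 102 and 120 CPM in NR GR-KO (1.35 ± 0.17, adjusted p = 1.30e-10). Cntn5, a neuronal adhesion molecule of the contactin family, stood at 37.3 and 24.1 CPM against 80.3 and 79.6 CPM (1.31 ± 0.19, adjusted p = 8.23e-09). Gabrg3, a GABA-A receptor subunit, stood at 72.9 and 76.6 CPM against 139 and 163 CPM (0.98 ± 0.16, adjusted p = 8.78e-07). In these genes both knockout libraries lay above both controls, and the groups did not overlap, in either direction, in 4295 of the 11833 genes tested and in all 37 higher calls. Lingo2 (0.97 ± 0.16), Chrm3 (1.11 ± 0.21), a muscarinic acetylcholine receptor, Grin2b (0.82 ± 0.15), an NMDA receptor subunit, and Epha6 rose too. DESeq2 kept 10 of the 37 higher calls. It lost Chrm3 (adjusted p = 0.0832), Epha6 (0.283) and Grin2a (0.0676). Pooled levels of Lingo2 were 3489 CPM in excitatory neurons and 170 CPM in OPCs, and those of Cntn5 1357 and 57.1 CPM. The NR GR-KO libraries were also the deepest, and the summed CPM of 11 excitatory neuron markers in their OPCs was 638 and 612, against 577 and 509 in NR GR-Con, 443 and 531 in DR GR-Con and 453 and 502 in DR GR-KO. Signs of RNA quality moved too, since the median percent of mitochondrial UMIs per OPC nucleus was 0.0212 and 0.0196 in NR GR-KO and 0.0127 to 0.0153 in the other 6 libraries, and ribosomal protein genes held 0.2497% and 0.237% of OPC UMIs against 0.178% to 0.216%. The part of depth, RNA quality and neuronal RNA in this result was not tested.

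Named genes lower in NR GR-KO were Lrp4, Grm8 and Gm13052. Lrp4, a low-density lipoprotein receptor-related protein known as the agrin receptor, stood at 156 and 140 CPM in NR GR-Con and 95.9 and 96.1 CPM in NR GR-KO (-0.66 ± 0.15, adjusted p = 0.00382). In DR Lrp4 stood at 106 and 121 CPM against 98.0 and 101 CPM, and the effect over both rearings missed the threshold (-0.44 ± 0.11, adjusted p = 0.0681). Grm8, a metabotropic glutamate receptor, stood at 163 and 152 CPM in NR GR-Con and 94.0 and 115 CPM in NR GR-KO (-0.63 ± 0.15, adjusted p = 0.0122). Gm13052 was lower by a log2 difference of -0.55. DESeq2 called none of the 5 lower genes (adjusted p of 0.0909 for Lrp4, 0.161 for Grm8 and 0.0971 for Gm13052), and 1 of the 5 was kept without NR GR-Con male or without NR GR-KO female.

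The genotype effect differed between the rearings for 11 of 12000 genes tested (0.0917% higher in NR, 0 lower), and all 11 were higher in excitatory neurons by the 4-fold rule, as were 3.5% of all genes tested. Galntl6 had the smallest p, with an effect larger by 1.71 ± 0.23 in NR than in DR (log2, adjusted p = 2.65e-09). In DR its controls were at 89.6 and 88.5 CPM and its knockouts at 70.3 and 69.5 CPM, so the order of the groups was opposite to that in NR. Cntn5 (1.83 ± 0.34, adjusted p = 1.73e-04) was at 53.9 and 83.2 CPM in DR GR-Con and 39.1 and 57.9 CPM in DR GR-KO, where the groups overlapped. Cntnap2 (1.38 ± 0.27), Nkain2 (1.27 ± 0.26), Chrm3 (1.64 ± 0.36), Epha6 (1.63 ± 0.37) and Gabrg3 (0.93 ± 0.21), most of them cell surface proteins of neurons, were also called. The depth of the libraries had the same order of groups as Galntl6 in NR and in DR, since the median UMIs over all nuclei were 17760 and 15884 in NR GR-Con, 22828 and 29223 in NR GR-KO, 16968 and 20161 in DR GR-Con, and 14929 and 14861 in DR GR-KO. The UMIs of 172 genes enriched in neurons had that order too, at 2.79% and 2.87% of OPC UMIs in NR GR-Con, 3.09% and 2.98% in NR GR-KO, 3.02% and 3.15% in DR GR-Con, and 2.98% and 2.96% in DR GR-KO. Other neuronal measures did not. The summed CPM of 10 inhibitory markers was 2316 and 2317 in NR GR-Con and 2082 and 2211 in NR GR-KO. That of 11 excitatory markers overlapped in DR, at 443 and 531 in GR-Con and 453 and 502 in GR-KO. The part of depth and of neuronal RNA in the interaction was not tested. The quasi-likelihood F-test called 3 genes. The 11 became 126 without DR GR-Con male, 28 without NR GR-Con male, 24 without NR GR-KO male, 4 without NR GR-KO female and 3 without DR GR-KO male. Among genes lower in the interaction, none was called by edgeR's likelihood ratio test (546 genes had an unadjusted p under 0.05 in either direction), and Prex2 came nearest (-1.01 ± 0.27, adjusted p = 0.120).

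**Figure D3:**
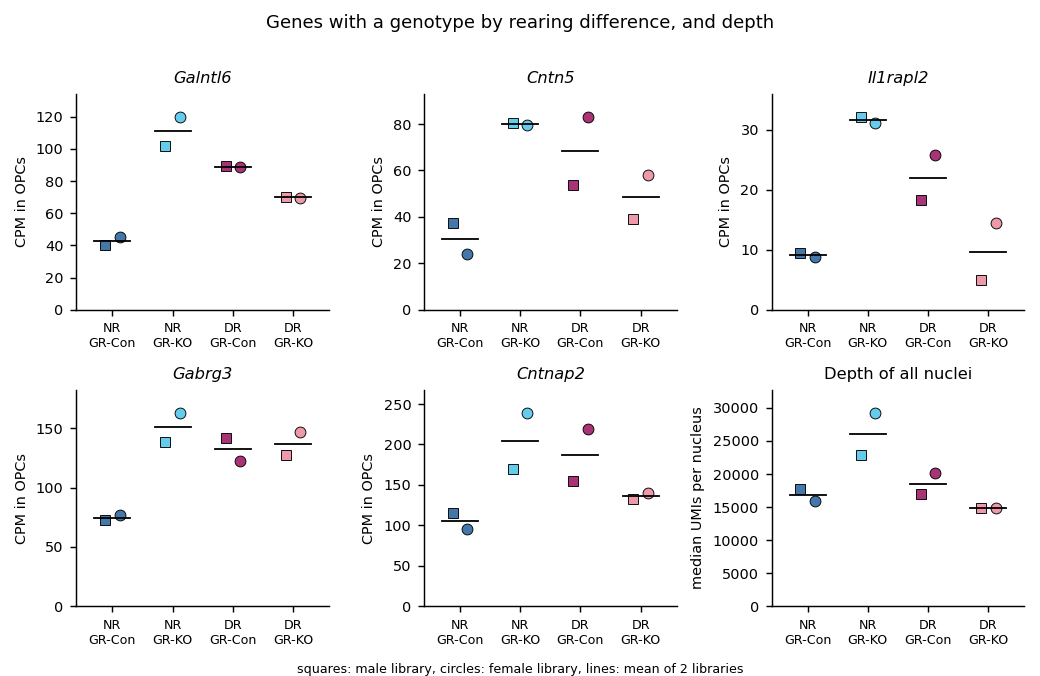
OPC levels by library, in CPM, of Galntl6, Cntn5, Il1rapl2, Gabrg3 and Cntnap2, whose GR-KO effect differed between NR and DR, and the median UMIs per nucleus over all nuclei (squares male, circles female, lines the mean of 2 libraries). Galntl6 rises from 40.2 and 45.2 CPM to 102 and 120 CPM in NR, and lies at 89.6 and 88.5 CPM against 70.3 and 69.5 CPM in DR, and depth is highest in NR GR-KO at 22828 and 29223 UMIs.

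Over both rearings, 12 of 11618 genes were higher in GR-KO (0.103%) and none was lower by edgeR, with 621 genes at an unadjusted p under 0.05 in either direction. Cell cycle genes were 3 of the 12 by list (Cenpf, Cenpe and Cenpa), out of 14 tested with a median of 1.14. Cenpe was higher by 1.45 ± 0.23 (adjusted p = 5.61e-06, and 0.0547 by the quasi-likelihood F-test), and Cenpa, the histone H3 variant of centromeres, by 1.58 ± 0.31 (adjusted p = 0.00102, and 0.352 by the F-test). The quasi-likelihood F-test called 2 genes, and 2 of the 12 were kept when the 3 libraries poor in microglia were left out, a setting chosen after seeing the data. The 12 became 42 without NR GR-Con female, 35 without DR GR-Con male, 32 without DR GR-Con female, and 6 without NR GR-Con male or DR GR-KO male.

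The summed CPM of 11 oligodendrocyte markers in OPCs ran from 183 to 196 in NR GR-Con, from 251 to 291 in NR GR-KO, from 129 to 159 in DR GR-Con and from 164 to 183 in DR GR-KO. The part of RNA from oligodendrocytes in the OPC values was not tested.

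The contrast of rearing over both genotypes gave calls in both directions. There, 110 of 11618 genes were higher in DR (0.947%) and 143 were lower (1.23%). Within GR-Con 15 of 11508 were higher (0.13%) and 5 lower (0.0434%), and within GR-KO 92 of 11477 were higher (0.802%) and 146 lower (1.27%). By the quasi-likelihood F-test these counts were 72 and 64 over both genotypes, 0 and 1 in GR-Con, and 136 and 132 in GR-KO. By DESeq2 they were 93 and 37, 8 and 2, and 67 and 15, so the balance of directions over both genotypes and within GR-KO turned with the tool. Within GR-KO, DESeq2 gave no adjusted p to several named lower genes, among them Nrgn, Gapdh, Bsg, Chrm3 and Grin2a. Such genes could not be called by it in either direction. The 253 calls over both genotypes became 391 without DR GR-Con female and 112 to 139 without NR GR-Con male, NR GR-KO female or either DR GR-KO library. With a term for the 3 libraries poor in microglia, added after seeing the data, 124 were higher and 140 lower, and 185 of the 253 were kept. With those 3 libraries left out, also added after seeing the data, 188 were higher and 137 lower, and 65 of the 110 higher and 63 of the 143 lower calls were kept. The 20 calls within GR-Con became 40 without NR GR-Con male, 7 without NR GR-Con female, 159 without DR GR-Con male and 59 without DR GR-Con female. The 238 within GR-KO became 376 without NR GR-KO male, 37 without DR GR-KO male and 80 without DR GR-KO female.

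The OPC identity list had 16 genes tested, of which 2 rose in DR (Xylt1 and Megf11) and none fell. Xylt1, the enzyme that starts glycosaminoglycan chains on proteoglycans, stood at 2213, 2296, 2204 and 2218 CPM in NR and at 3138, 2938, 3126 and 3221 CPM in DR, GR-Con first. All 4 dark-reared libraries lay above all 4 normally reared ones, and the log2 difference was 0.51 ± 0.09 (adjusted p = 6.64e-06). Megf11, among the 12 genes with the highest ratio above, lay between 432 and 478 CPM in NR and between 490 and 644 CPM in DR (0.36 ± 0.10, adjusted p = 0.0237). Pdgfra did not pass the test (-0.01 ± 0.09, adjusted p = 0.968), nor did Cspg4 (0.30 ± 0.12, adjusted p = 0.229), Vcan (-0.12 ± 0.10, adjusted p = 0.667) or Olig2 (0.32 ± 0.13, adjusted p = 0.207).

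Kcnip3, which encodes KChIP3, a calcium-binding partner of Kv4 potassium channels, had the smallest p among the genes higher in DR. It stood at 254, 211, 293 and 273 CPM in NR and at 466, 362, 454 and 446 CPM in DR, without overlap (0.78 ± 0.10, adjusted p = 3.44e-10). Kcnd2, the Kv4.2 channel, lay between 4413 and 4684 CPM in NR and between 4817 and 5062 CPM in DR, and was not called (0.17 ± 0.08, adjusted p = 0.370). Inka2, an inhibitor of the kinase PAK4, stood at 35.0, 30.0, 56.6 and 35.8 CPM in NR and at 91.8, 58.7, 80.7 and 67.5 CPM in DR (0.96 ± 0.17, adjusted p = 2.49e-05). Adamts9, a secreted protease that cleaves versican, was the 1 gene of the matrix and adhesion list that was called among 28 tested (0.89 ± 0.18, adjusted p = 3.57e-04). Ccnd1, cyclin D1, which drives entry into the cell cycle, rose by 0.81 ± 0.19 (adjusted p = 0.00458) and was the only called gene among the 14 of the cell cycle list. Lmcd1 (0.92 ± 0.15) and Arhgef3 (0.94 ± 0.22, but adjusted p = 0.158 by DESeq2), an activator of RhoA, rose as well, and so did the cation channel gene Trpm3 (0.42 ± 0.11, adjusted p = 0.0119), the 1 called of 19 ion channel genes.

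**Figure D4:**
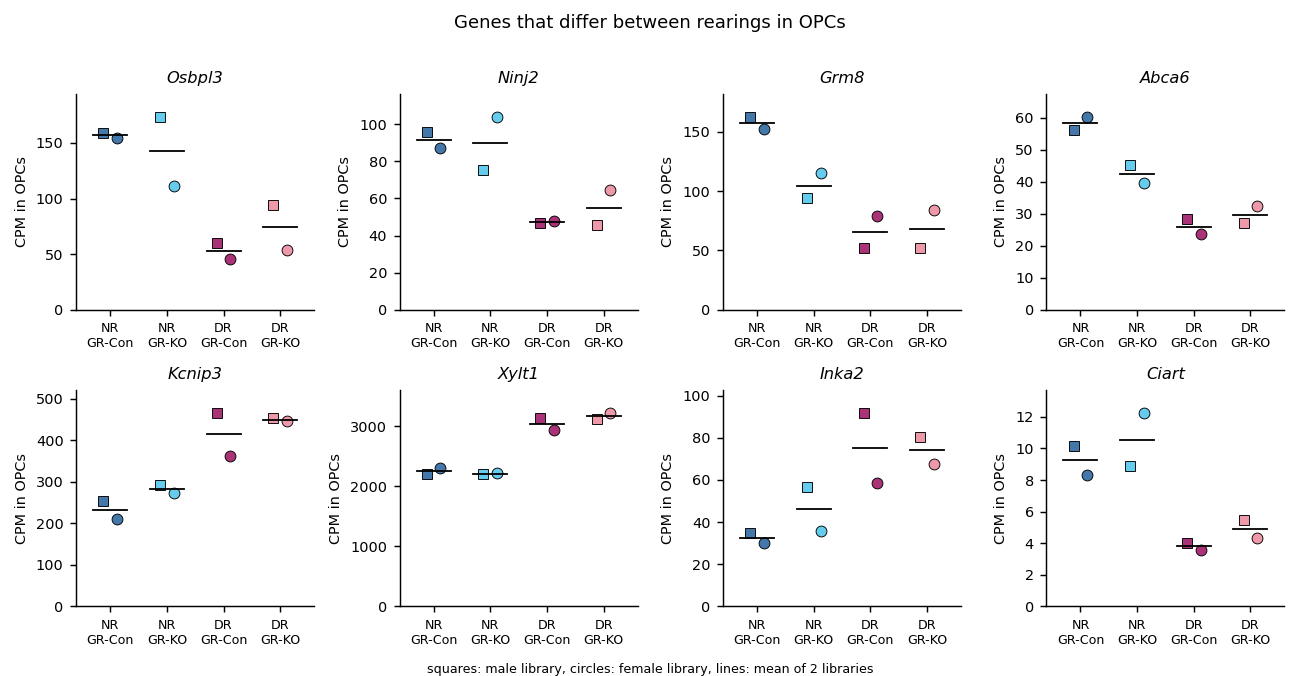
OPC levels by library, in CPM, of genes that differed between NR and DR over both genotypes, with squares for male libraries, circles for female libraries and lines for the mean of 2. Xylt1, Kcnip3 and Inka2 lie higher in all 4 DR libraries than in any NR library, and Osbpl3, Grm8, Ninj2, Abca6 and Ciart lie lower.

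Within one genotype, genes with high levels in neurons took part in opposite directions. Of the 15 genes higher in DR within GR-Con, 8 met the 4-fold rule for excitatory neurons (3.25% of all genes tested did), among them Galntl6 (1.09 ± 0.18, adjusted p = 3.64e-06) and Cntn5 (1.16 ± 0.26, adjusted p = 0.00955). Within GR-KO, 39 of the 146 lower genes met it and none of the 92 higher ones did (3.38% of all genes tested), with Galntl6 at -0.62 ± 0.15 (adjusted p = 0.00736), Cntn5 at -0.68 ± 0.18 (adjusted p = 0.0149) and Chrm3 at -1.04 ± 0.20 (adjusted p = 1.77e-04). Grin2a (-0.79 ± 0.17) and Grin2b (-0.63 ± 0.14) were lower as well. So were 2 of 10 tested excitatory markers (Sv2b and Nrgn) and 3 of 7 inhibitory ones (Gad2, Sst and Vip). The call of Sst was lost under the F-test (adjusted p = 0.0597). DESeq2 kept 34 of the 238 calls within GR-KO. Higher in DR within GR-KO were Cenpp (1.06 ± 0.25), a centromere protein gene, the recombination gene Rad51b (0.97 ± 0.19), Zbtb16 (0.94 ± 0.22) and Zbtb7c (0.85 ± 0.18). These contrasts and those of genotype share their libraries.

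Osbpl3, a gene of the oxysterol-binding protein family of lipid carriers (chr6:50293330-50456201, GRCm38), fell in darkness in both genotypes. It stood at 159, 155, 174 and 112 CPM in NR and at 59.7, 45.8, 94.0 and 54.0 CPM in DR. No library of one rearing overlapped those of the other, and the log2 difference was -1.22 ± 0.18 (adjusted p = 3.56e-08). Within GR-Con it was -1.55 ± 0.18 (adjusted p = 1.69e-14, and 0.00395 by the quasi-likelihood F-test), and within GR-KO -0.91 ± 0.19 (adjusted p = 6.81e-04).

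Grm8 stood at 163, 152, 94.0 and 115 CPM in NR and at 52.1, 78.7, 52.5 and 84.0 CPM in DR (-0.91 ± 0.17, adjusted p = 5.64e-05). Ninj2, an adhesion molecule of the ninjurin family, stood at 95.8, 87.4, 75.5 and 104 CPM in NR and at 46.8, 47.6, 45.5 and 64.7 CPM in DR (-0.79 ± 0.14, adjusted p = 2.49e-05). Abca6, an ABC transporter gene, lay between 39.6 and 60.4 CPM in NR and between 23.6 and 32.3 CPM in DR (-0.81 ± 0.15, adjusted p = 6.99e-05). In each of these 3 genes every NR library was above every DR library, and the rearings did not overlap, in either direction, in 899 of the 11618 genes tested and in 113 of the 143 lower calls.

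Markers of neurons were among the genes lower in darkness, though 7 of the 143 lower genes (4.9%) met the 4-fold rule for excitatory neurons, beside 3.3% of all genes tested. Nrgn, neurogranin of excitatory neurons (-0.85 ± 0.14, adjusted p = 6.64e-06), was the 1 called of 9 tested excitatory markers, and Gad2 (-1.33) and Sst (-1.35, adjusted p = 0.0964 by the F-test), of inhibitory neurons, were 2 of 7. The glycolytic enzyme Gapdh fell by 0.83 ± 0.14 (adjusted p = 6.64e-06), and Bsg, basigin, by 0.88. Hba-a1, a haemoglobin gene chosen after its values were seen, lay between 13.3 and 24.5 CPM in NR and between 6.68 and 11.4 CPM in DR (-1.17 ± 0.20, adjusted p = 1.06e-05). The summed CPM of the 10 inhibitory markers ranged from 2074 to 2330 over all libraries, and no marker list of another type lacked its defining genes in every library. Depth, mitochondrial and ribosomal protein shares were highest in the NR GR-KO libraries, as given above. The part of these and of RNA from other cells in the falls was not tested.

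Clock and activity genes fell in part. The circadian clock list had 16 genes tested, 3 lower in DR (Dbp, Tef and Ciart) and none higher, with a median of -0.26. Dbp, a clock output factor, stood at 11.8, 15.2, 13.3 and 21.2 CPM in NR and at 8.47, 4.00, 6.93 and 7.24 CPM in DR (-1.14 ± 0.26, adjusted p = 0.00278). Ciart, a repressor in the clock, fell by 1.15 ± 0.28 (adjusted p = 0.00571), and Tef by 0.35 ± 0.11 (adjusted p = 0.0462, against 0.0701 by the F-test and 0.0778 by DESeq2). The core genes Per2 (-0.33 ± 0.20, adjusted p = 0.506) and Arntl (0.46 ± 0.21, adjusted p = 0.275) were not called, and in the DR GR-Con female library Per2 was lowest of 8 at 20.9 CPM and Arntl highest at 71.6 CPM. Of the immediate early genes, which neuronal activity induces, Egr1 was the 1 called of 6 tested (-1.08 ± 0.23, adjusted p = 6.81e-04), at 13.3 to 28.9 CPM in NR and 5.35 to 15.9 CPM in DR, and the groups overlapped. The E-box CACGTG, which CLOCK and BMAL1 are known to bind, was searched from 250 bases before to 50 bases after the start site. It was found in 2 of the 3 clock genes (Ciart and Tef) and in 11.7% of all tested genes with a promoter. That of Ciart (chr3:95882229-95882378, minus strand, GRCm38.p6) holds it at 116, 58 and 44 bases before the start site, in capitals.
Ciart: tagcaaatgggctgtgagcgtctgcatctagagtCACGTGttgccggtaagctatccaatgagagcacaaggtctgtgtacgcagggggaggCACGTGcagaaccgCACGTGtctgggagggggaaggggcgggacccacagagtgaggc

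The myelin list had 9 genes tested, of which 2 fell in darkness, among them Ugt8a, with a median of -0.72 and no positive log2 difference. The list of oligodendrocyte markers moved with it, with 7 genes tested, 1 lower, none positive and a median of -0.74. The part of oligodendrocyte RNA in these values was not tested. Ugt8a, an enzyme of galactolipid synthesis for myelin, fell by 0.30 ± 0.09 (adjusted p = 0.0399, against 0.0507 by the F-test and 0.0658 by DESeq2). The committed precursor list had 14 genes tested and none called by edgeR, with a median of -0.05, and Gpr17 was at -0.30 ± 0.12 (adjusted p = 0.220). After thinning to 3000 UMIs, nuclei with UMIs of at least 2 of Gpr17, Bmp4, Enpp6, Tcf7l2 and Bcas1 made up 36.5% ± 3.24 of OPCs in DR and 42.1% ± 2.87 in NR (SD, n = 4 each; exact two-sided permutation p = 0.0857, adjusted p = 0.257 over 6 tests of shares). The values were 43.8%, 39.9%, 39.4% and 45.2% in NR and 32.9%, 40.7%, 35.7% and 36.5% in DR, so the groups overlapped. Without thinning the class was 58.8% in DR and 72.2% in NR (exact permutation p = 0.0571), and with at least 1 gene in place of 2 it was 86.3% and 88.5% (exact permutation p = 0.314). Of the genes of this class, Bcas1 was carried by 90.8% of OPC nuclei, Tcf7l2 by 44.5% and Gpr17 by 40.8%. Bmp4 was carried by 6.67% and Enpp6 by 0.808%. The class was not recomputed without any of them, and whether it marks a level or a separate stage was not tested. By genotype the share of this class was 39.2% in GR-KO against 39.3% in GR-Con (exact permutation p = 0.943).

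Among the other lists, the rearing contrast called 1 of 14 growth factor receptor genes, Ednrb (-0.44 ± 0.14, adjusted p = 0.0495, against 0.0872 by the F-test and 0.0602 by DESeq2), and none of 14 in Notch, BMP and Wnt signalling, 27 glutamate and GABA receptors, 12 glucocorticoid receptor targets, 13 nuclear hormone receptors or 18 cholesterol synthesis genes. Their medians were 0.04, 0.11, 0.08, 0.02, 0.07 and -0.18, beside a median of -0.00451 over all genes. In GR-KO alone, 2 of 12 tested glucocorticoid receptor targets were called, Zbtb16 higher (lost under DESeq2, adjusted p = 0.475) and Mt1 lower (lost under the F-test, adjusted p = 0.0649), and Hmgcs1 of the cholesterol list was lower (-0.78 ± 0.24, adjusted p = 0.0492, against 0.0615 by the F-test). Of the markers of other types, none of 9 astrocyte and 3 microglia genes was called, 1 of 7 oligodendrocyte genes was lower in DR, no endothelial or mural gene was high enough to test, and the single VLMC gene tested, Lama1, was higher in DR (1.13 ± 0.31, adjusted p = 0.0231, against 0.0726 by the F-test). The genotype contrast over both rearings called, beside the 3 cell cycle genes and 1 of 9 in the myelin list, no gene of the lists of OPC functions.

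**Figure D5:**
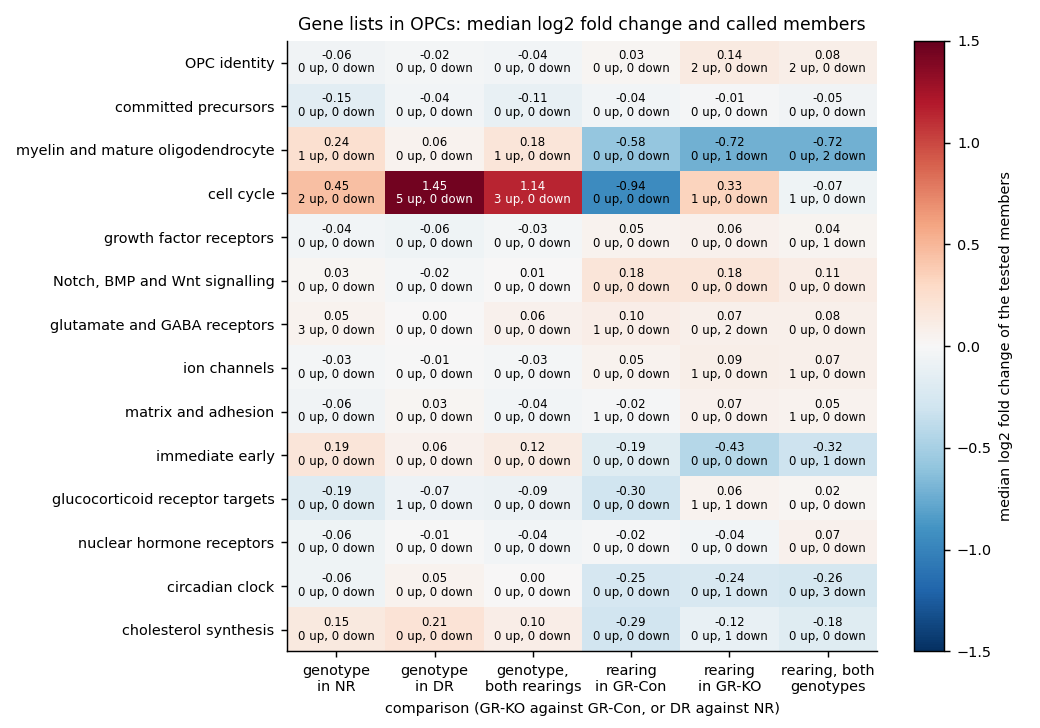
Median log2 fold change of the tested members of 14 gene lists in OPCs (rows), shown by colour and number for 6 comparisons of genotype (GR-KO against GR-Con) and rearing (DR against NR), with the members called up and down. The cell cycle list lies at 1.45 for GR-KO against GR-Con in DR, and the myelin list at -0.72 for DR against NR.

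The rearing effect in OPCs was set against that in oligodendrocytes of the same libraries. It was higher in OPCs for 56 of 14221 genes (0.394%) and lower for 177 (1.24%). Inka2 had an effect larger by 1.31 ± 0.23 (adjusted p = 5.23e-06), Ccnd1 by 1.06 ± 0.30 (adjusted p = 0.0251) and Arhgef3 by 0.85 ± 0.24 (adjusted p = 0.0253). For Osbpl3 (0.43, adjusted p = 0.64), Kcnip3 (0.34, adjusted p = 0.69) and Ninj2 (-0.52, adjusted p = 0.137) no difference between the types was called. Of the OPC identity list 5 of 16 were lower (Vcan, Lhfpl3, Neu4, Cacng4 and Sox6), and none of these 5 was called by rearing in OPCs alone. Lhfpl3 in oligodendrocytes lay between 180 and 376 CPM in NR and between 378 and 635 CPM in DR, against 6343 ± 421 CPM (SD, n = 8) in OPCs.

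The genotype effect in OPCs was set against that in astrocytes, the cells the vector targets. It was higher in OPCs for 147 of 14794 genes (0.994%) and lower for 183 (1.24%). Of 19 glucocorticoid receptor targets 4 were higher and none lower, with a median of 0.71, and Fkbp5 differed by 2.22 ± 0.30 (adjusted p = 1.49e-10). Klf9 (0.84 ± 0.18), Cables1 (1.04 ± 0.18) and Zbtb16 (1.21 ± 0.28) were the others. The genotype effect was lower in OPCs than in astrocytes for the cholesterol genes Hmgcs1 (-1.08 ± 0.18), Cyp51 (-0.74 ± 0.18) and Insig1 (-0.89 ± 0.23). The same held for Vcan (-1.55 ± 0.15, adjusted p = 9.91e-21). Within OPCs over both rearings, none of 18 tested cholesterol genes was called by genotype, and 15 had a positive log2 difference (median 0.10). In OPCs alone Vcan was not called by genotype (-0.11 ± 0.10, adjusted p = 0.998).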

How the data were processed

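Single-nucleus RNA-seq was made from DRAQ5-positive, GFP-negative V1 nuclei (10x Genomics 3′ chemistry), 1 library per mouse, 8 in all. Per the labels and methods, the authors counted UMIs with Cell Ranger 8.0.1 on mm10, clustered nuclei with Seurat 5.3.0, and removed doublets and clusters without markers. The deposited cell table also gives the percent of mitochondrial UMIs per nucleus, which the authors computed and which is given here as a median per library. The deposited counts are raw UMI counts per gene and nucleus, with a cell table that gives type, rearing, genotype and library. The nuclei labelled OPC were taken as given, and counts were summed per library.

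Comparisons used edgeR 4.0.16 (filterByExpr, TMM, estimateDisp, likelihood ratio test, Benjamini-Hochberg over all genes tested, threshold 0.05). The study names edgeR's likelihood ratio test on sums per library, and the filter, scaling and further contrasts were chosen here. This test makes no allowance for the uncertainty of the dispersion, which 2 libraries a group leave wide. SE is the log2 difference divided by the square root of the likelihood ratio statistic. The quasi-likelihood F-test and DESeq2 1.42.0 were alternatives, beside other filters, a sex term, equal nuclei, 1 fit of all libraries and each library left out. Differences between cell types came from a fit of both types with a library block. Shares of nuclei were tested by exact permutation over libraries. Scripts were tested on simulated data.

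For each comparison, up to 6 called genes per direction were named by the size of the change at an average log2 CPM of at least 5 (or the 2 of smallest p where none was called), plus every called member of 22 gene lists. Other genes were named outside this rule. Some are marked as chosen after their values were seen, and others, such as Per2, Arntl, Mlip and Csf1, carry no such mark. The nuclei, lists and tests were chosen with earlier results of these data known. OPC UMI totals of 2020506 to 3059249 limit genes under about 1 CPM to a few counts. Results for some genes are not reported here.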

Additional observations from a re-analysis of the deposited data

Results flagged for a closer look

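Among 44 groups of 4 libraries tested for a value far from the others, 1 stood out, where chance gives about 1 in 20. Adamts9 in DR was highest in the DR GR-Con male library at 91.4 CPM, and the other 3 DR libraries lay between 53.9 and 58.3 CPM.

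The genotype effect on OPCs differed between NR and DR for 11 genes in edgeR's likelihood ratio test of the interaction, given as log2 effect in NR minus that in DR. It was 1.71 for Galntl6, 2.92 for Il1rapl2, 6.16 for 6530403H02Rik, 1.83 for Cntn5, 1.38 for Cntnap2, 1.27 for Nkain2, 1.64 for Chrm3, 0.95 for Kcnip4, 1.63 for Epha6, 0.93 for Gabrg3 and 1.65 for Zfp804b. The value of 6530403H02Rik rested on few counts, at 0 and 0.491 CPM in NR GR-Con and 0.495 to 7.56 CPM in the other 6 libraries.

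The rearing effect differed between OPCs and oligodendrocytes for 233 genes, and the genotype effect differed between OPCs and astrocytes for 330 genes, both by edgeR's likelihood ratio test.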

How the results depend on the processing

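No paired analysis was possible because the library names carry no replicate number, only the sex. A term for sex in its place gave 84 called genes for genotype in NR, 83 for genotype in DR, 413 for rearing in GR-KO and 19 for the interaction. The quasi-likelihood F-test called 1 gene for genotype in DR, 1 for rearing in GR-Con, 3 for the interaction, 2 for genotype over both rearings, 136 for rearing over both genotypes, 116 for OPC minus oligodendrocyte rearing and 169 for OPC minus astrocyte genotype. DESeq2 called 12 for genotype in NR, 1 for genotype in DR, 10 for rearing in GR-Con, 82 for rearing in GR-KO, 6 for the interaction, 3 for genotype over both rearings and 130 for rearing over both genotypes. With no filter the counts were 20 for genotype in DR, 13 for rearing in GR-Con, 21 for genotype and 167 for rearing over both. With equal nuclei they were 26 for genotype in NR, 82 for rearing in GR-KO and 151 for rearing over both genotypes. With 1 fit of all 8 libraries they were 27 and 22 for genotype in NR and DR, and 37 and 80 for rearing in GR-Con and GR-KO. A term for the 3 libraries poor in microglia, chosen after seeing the data, gave 58 for rearing in GR-Con and 23 for genotype over both rearings. The cause of these changes was not tested.

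With each library left out in turn, called genes ranged from 33 to 54 for genotype in NR, 18 to 285 for genotype in DR, 7 to 159 for rearing in GR-Con, 37 to 376 for rearing in GR-KO, 3 to 126 for the interaction, 6 to 42 for genotype and 112 to 391 for rearing over both, 155 to 321 for OPC minus oligodendrocyte and 197 to 461 for OPC minus astrocyte. A lone library was then assumed to vary like the others. The highest count for genotype in DR and for rearing in GR-Con came without the DR GR-Con male library. Differences in share, in percentage points, ranged from -0.352 to 0.124 for OPCs by rearing and -0.219 to 0.267 by genotype, -7.04 to -4.43 for the committed class by rearing and -2.32 to 1.34 by genotype, and -0.602 to 0.950 for cycling nuclei by rearing and 1.53 to 2.76 by genotype. As a share of OPC and oligodendrocyte nuclei, OPCs were 1.96 points higher in DR, against -0.138 of all nuclei, and the difference of GR-KO from GR-Con was -3.83 points (-2.69 of glial nuclei), against -0.0160 of all nuclei. Over 102 pairs of named gene and comparison, 0 of 1400 values reversed, 314 lost the call and 3 gained it. These genes were chosen by their results in the same libraries, so few reversals could arise, and values without an adjusted p were not counted. Among the differences in share, 15 settings reversed.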
